A study of Vulpes vulpes with 8 samples.

Results

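The genes described here are those that make, clear and sense adenosine: ENTPD1, NT5E, ADA, PNP, ADK, DPP4, ADORA2A and ADORA2B. They are 8 of the 15115 genes that the platform annotation names, and all probe sets assigned to 1 of these symbols alone were taken, 17 of the 43035 on the array. The set was built around ADA, which was selected on its high signal and with its difference between affected and unaffected foxes already known from these arrays. Its group difference and its relation to the other genes are therefore given as a description, with no p-value. The other genes were chosen by their role beside ADA.

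RNA came from the gingiva of 8 red foxes (Vulpes vulpes), with 1 Affymetrix Canine 2 array per fox. The affected group had HHG (hereditary hyperplastic gingivitis), an inherited gum overgrowth diagnosed from red, raised and granular tissue at the tooth margin, and comprised 5 foxes, the males 19, 55 and 107 and the females 381 and 757. The unaffected group comprised 3 foxes, the males 86 and 97 and the female 402. The labels used here name neither the age nor the season of each fox, which was either the pelting season or late spring. The probe sets were designed on dog sequence, so a weak signal may mean a weak match to the fox transcript as well as little RNA. Signals of different probe sets were therefore not compared as amounts of RNA. They were used to filter and order probe sets, and were added up in the marker sums, where bright probe sets weigh most.

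Adenosine is released by damaged and inflamed tissue and made outside cells from ATP. ENTPD1 (CD39) strips ATP and ADP to AMP, and NT5E (CD73) turns AMP into adenosine. The receptors ADORA2A and ADORA2B answer it by raising cyclic AMP, which restrains many immune cells. Adenosine taken up by cells is either phosphorylated back to AMP by ADK or deaminated to inosine by ADA. PNP then splits inosine into hypoxanthine and a sugar phosphate. DPP4 (CD26) is a surface peptidase that also anchors ADA on human cells. In mice ADA is abundant in the stratified squamous epithelium of the upper digestive tract.

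Of the 17 probe sets, 14 passed the filter on low signal, and they covered 7 of the 8 genes. The probe set of ADORA2A and 2 of the 4 for NT5E were left out. The background of an array was set at the 95th percentile over its 42 bacterial control probe sets, and lay between 7.42 and 16.6. The gingival character of the samples was visible in epithelial markers, with 10 of the 13 measured suprabasal and cornified markers and 4 of the 5 measured basal markers above background in all 8 foxes. The summed signal of the suprabasal and cornified list varied, spanning 26489 to 64038 across affected foxes and 9535 to 61285 across unaffected ones. Arrays also differed in the 5' beta-actin control, which was above 5000 in foxes 107, 757, 86 and 97 and below it in foxes 19, 55, 381 and 402. In bulk tissue, fewer cells of a type and less RNA per cell cannot be told apart.

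**Figure D1:**
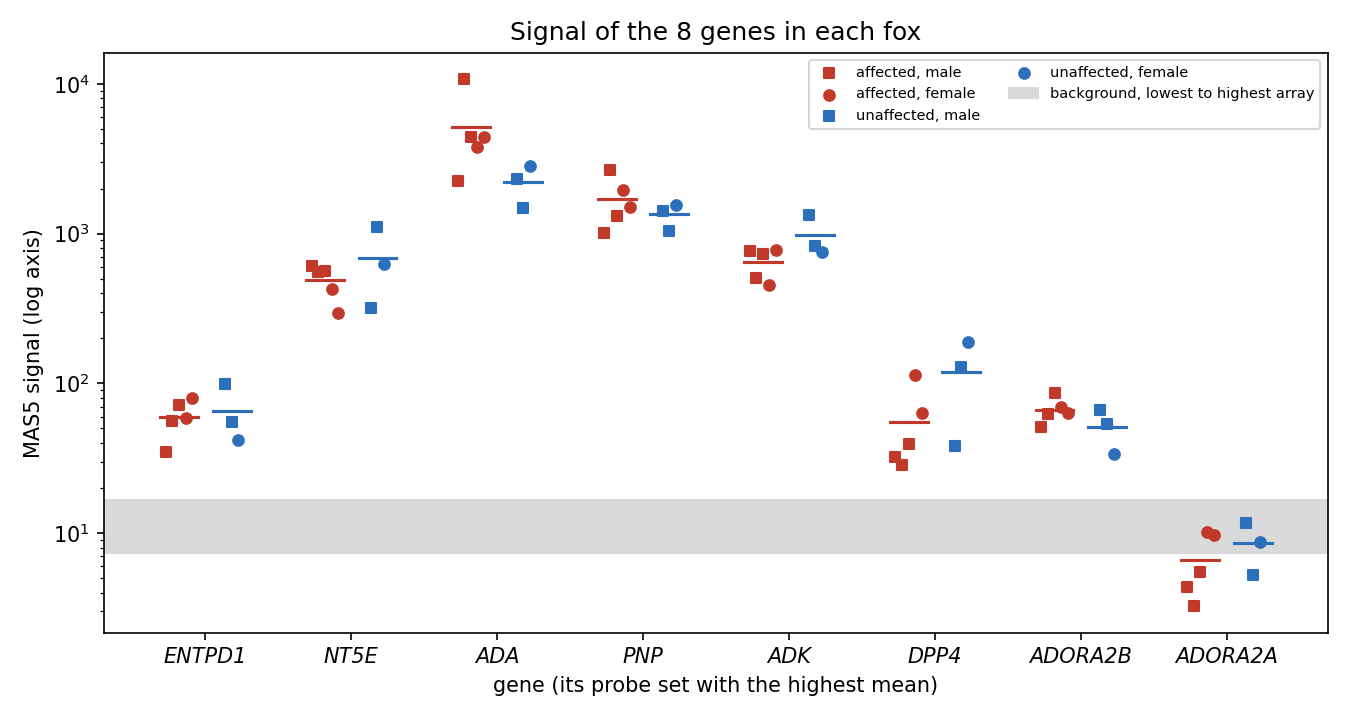
MAS5 signal on a log axis for the probe set of highest mean of each gene, with 1 point per fox (squares males, circles females), affected foxes in red on the left and unaffected foxes in blue on the right of each gene, and a bar at each group mean. The grey band spans the background of the 8 arrays, 7.42 to 16.6. ADA runs from 1491 to 10725, and ADORA2A stays at or below 11.7.

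ADA, the deaminase, varied more between foxes than most genes on the array. Its brightest probe set read 2240.5, 10725, 4413, 3762 and 4445 in affected foxes 19, 55, 107, 381 and 757, against 2308, 1491 and 2822 in unaffected foxes 86, 97 and 402. Fox 55 was highest and fox 97 lowest, and the groups overlapped because affected fox 19 lay below unaffected foxes 86 and 402. Affected foxes averaged 5117 ± 3259.8 (SD, n = 5), against 2207 ± 671 (SD, n = 3) for unaffected ones.

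All 4 ADA probe sets gave the same order at both ends, though the dimmest pair was named for the same source transcript. The 4 correlated with each other at a Pearson r of 0.974 to 0.999 over the 8 foxes, a description of probe sets read on the same arrays. Each placed fox 55 first, fox 757 second and fox 97 last, and each put fox 55 between 2.25 and 2.51 times above fox 757. The second probe set read 1146, 7863, 3130.1, 2743 and 3489.5 in affected foxes 19, 55, 107, 381 and 757, against 1456, 1034 and 2415 in unaffected foxes 86, 97 and 402. On the scale log2(signal + 16), used for every difference, the 4 probe sets differed between affected and unaffected foxes by 1.06, 0.99, 0.95 and 1.03.

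The ADA difference depended on which foxes were compared. Without affected fox 55 it was 0.74 on the brightest probe set and 0.65, 0.57 and 0.65 on the others. Without unaffected fox 97 it was 0.80, 0.70, 0.65 and 0.76 in the same order. Over each fox left out in turn, the 4 probe sets ranged from 0.57 to 1.42. It was 1.35 within males and 0.53 within females, where a single fox was unaffected. It was 1.25 within the foxes of high 5' actin and 0.67 within those of low 5' actin, and on the second probe set the corresponding differences were 1.42 and 0.27. The SD within groups was 0.72 to 0.97 on the log2 scale over the ADA probe sets, where the median of all 25754 probe sets tested was 0.32, and it lay at or above the 93.9th percentile for each of them.

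Markers of several cell types also varied between these foxes. The summed signal of the 8 measured T cell markers was 143 in fox 19, 915 in fox 55, 709 in fox 107, 532 in fox 381 and 779.6 in fox 757 among affected foxes, against 1600 in fox 86, 281 in fox 97 and 393 in fox 402 among unaffected foxes. Foxes 19 and 97, at the low end of ADA, had the lowest sums, while fox 86 had the highest T cell sum and an ADA signal below the affected mean. The sum over the 5 measured basal epithelial markers spanned 4173 to 7365 across affected foxes and 4489 to 5717 across unaffected ones. As a description, the mean log2 value of the T cell markers had a Pearson r of 0.41 with ADA. It was 0.36 for B and plasma cells, 0.45 for macrophages and dendritic cells and -0.84 for basal epithelium. Without foxes 55 and 97 the r was 0.19, 0.25, 0.35 and -0.65 in the same order. The basal markers did not move as one in fox 55, where ADA was highest. TP63 (2.64, at background) and DST (501) were lowest there, ITGA6 (5384) and ITGB4 (817) were highest, and COL17A1 (77.4) lay in between. The basal sum of fox 55 was 6782, below that of fox 19 alone. Above background in all 8 foxes were 4 of the 8 T cell markers and 4 of the 5 basal markers. CD5 was above it in 1 fox and CD8A in 2, and no T cell or basal marker was at background in all 8. The part of cell makeup in the ADA difference was not tested.

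PNP, the phosphorylase that acts next on inosine, had its highest signal in the same fox as ADA. It read 1010.5, 2671, 1314, 1952 and 1506 in affected foxes 19, 55, 107, 381 and 757, against 1426, 1048 and 1556 in unaffected foxes 86, 97 and 402. All 3 unaffected foxes lay within the affected range, with fox 19 lowest. Affected foxes averaged 1691 ± 646 (SD, n = 5), against 1343 ± 263 (SD, n = 3) for unaffected ones. The log2 difference was 0.27 ± 0.30 (SE) and did not pass the threshold of an adjusted p under 0.05 in limma (adjusted p = 0.99992). The second PNP probe set differed by 0.29, and the 2 probe sets correlated at an r of 0.975. Without affected fox 55 the difference on the first probe set was 0.08, and without unaffected fox 97 it was 0.10.

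Across the 8 foxes the log2 values of PNP and ADA had a Pearson r of 0.85 and a Spearman rho of 0.71, given as a description because ADA was chosen with its values known. Without foxes 55 and 97, the 2 farthest from the median of ADA, r was 0.46. Leaving out the extremes of ADA narrows its range, which can lower r by itself. With values centred within group, r over the 8 foxes was 0.89. The sets of high and low 5' actin held 4 foxes each, too few for a value within them.

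ADK, which returns adenosine to AMP, had lower means in affected foxes on both its probe sets, though neither passed the test. The first read 761, 506, 729, 453 and 778 in affected foxes 19, 55, 107, 381 and 757, against 1334, 832 and 751 in unaffected foxes 86, 97 and 402. Fox 86 stood highest, and the groups overlapped at the level of fox 402, which lay below affected foxes 19 and 757. Affected foxes averaged 645 ± 154 (SD, n = 5), against 972 ± 316 (SD, n = 3) for unaffected ones. The log2 difference was -0.57 ± 0.26 (SE; adjusted p = 0.99992 in limma). The second probe set spanned 264 to 584 across affected foxes and 481 to 644 across unaffected ones, and differed by -0.35 ± 0.25 (SE). Without unaffected fox 86 the first probe set differed by -0.32, without affected fox 55 the second differed by -0.19, and within the foxes of high 5' actin the second differed by -0.01. The correlation of the first ADK probe set with ADA over the 8 foxes was -0.59 in Pearson's r and -0.57 in Spearman's rho, again as a description. Its r was -0.51 without foxes 55 and 97. The second probe set, at an r of 0.809 with the first, was not correlated with ADA. It was lowest in fox 55, but fox 757, next highest in ADA, read 584, above the 481 of fox 97, lowest in ADA.

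**Figure D2:**
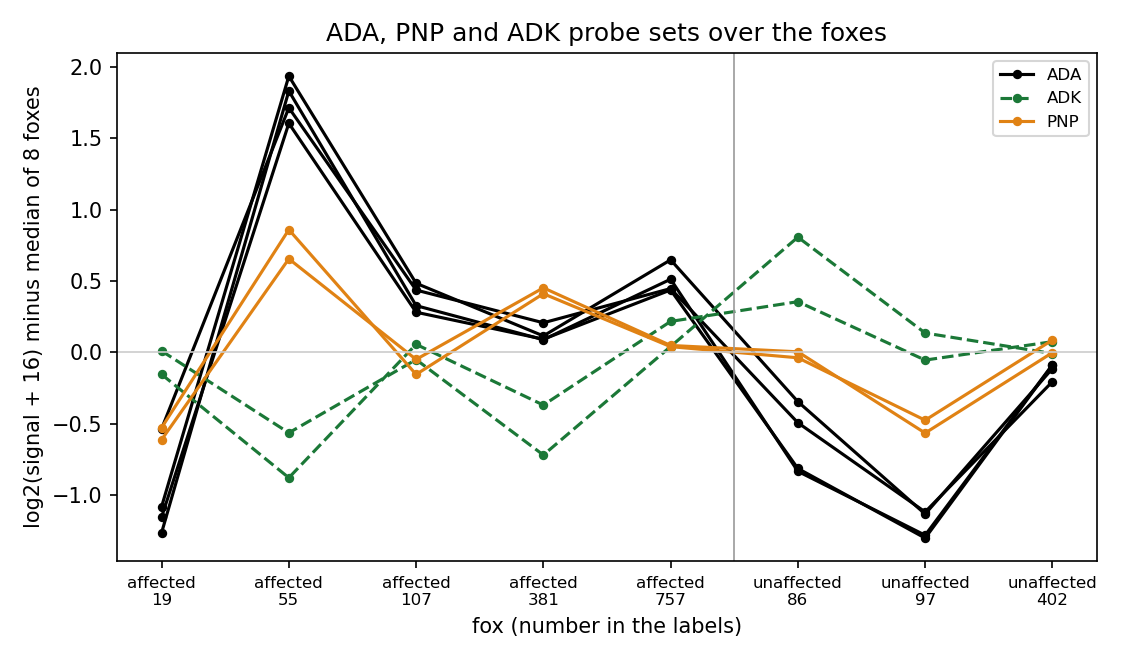
Log2(signal + 16) of each probe set of ADA (4, black), PNP (2, orange) and ADK (2, green, dashed), minus its median over the foxes, for the affected foxes on the left of the vertical line and the unaffected foxes on the right. The ADA lines peak together in fox 55 and are low in foxes 19 and 97, the PNP lines peak in fox 55, and the ADK lines peak in fox 86.

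DPP4, the surface peptidase that binds ADA on human cells, gave weak signals that differed widely between foxes. Its brighter probe set read 32.1, 28.4, 39.4, 114 and 63.3 in affected foxes 19, 55, 107, 381 and 757, against 38.1, 129 and 189.7 in unaffected foxes 86, 97 and 402. The lowest signal was in fox 55, where ADA was highest, and unaffected fox 86 lay among the affected males. The log2 difference was -0.84 ± 0.46 (SE), with an adjusted p of 0.99992 in limma, and it was -0.43 without unaffected fox 402 and -1.40 without unaffected fox 86. Within high 5' actin it was -0.42, and within low 5' actin -1.66. The second probe set, named for the same source transcript, spanned 12.8 to 36.2 across affected foxes and 25.0 to 63.1 across unaffected ones, with affected fox 107 at background, and differed by -0.58 ± 0.26 (SE).

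NT5E, the enzyme that makes adenosine from AMP, was measured by 4 probe sets. The brightest read 605, 558, 559.6, 425 and 293 in affected foxes 19, 55, 107, 381 and 757, against 317, 1115 and 627 in unaffected foxes 86, 97 and 402. Fox 97 was highest, and fox 86 lay near the bottom beside affected fox 757. The log2 difference was -0.35 ± 0.37 (SE; adjusted p = 0.99992 in limma), and it was 0.08, the opposite sign, without unaffected fox 97 and -0.80 without unaffected fox 86.

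The second NT5E probe set read 29.1, 18.1, 35.6, 30.4 and 23.8 in affected foxes 19, 55, 107, 381 and 757, against 36.9, 139 and 44.3 in unaffected foxes 86, 97 and 402. It was the only member probe set tested in which the groups did not overlap, though affected fox 107 and unaffected fox 86 lay side by side. Its log2 difference was -0.88 ± 0.33 (SE; adjusted p = 0.99992 in limma), and -0.39 without unaffected fox 97. Of the other NT5E probe sets, which were not tested, 1 was above background in 2 affected foxes and 1 unaffected fox, and the other in 3 affected foxes and 1 unaffected fox.

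ENTPD1, which starts the chain outside the cell, showed the smallest group difference among the member probe sets tested. It read 34.8, 55.7, 71.3, 58.4 and 79.8 in affected foxes 19, 55, 107, 381 and 757, against 99.0, 55.1 and 41.9 in unaffected foxes 86, 97 and 402. The groups overlapped in part, with unaffected fox 86 above every affected fox and affected fox 19 below every unaffected one. The log2 difference was -0.07 ± 0.27 (SE; adjusted p = 0.99992 in limma), and it turned to 0.21 without unaffected fox 86 and to 0.07 without affected fox 19. Over the 8 foxes ENTPD1 and the brightest NT5E probe set ran in opposite directions, with a Pearson r of -0.62 (exact permutation p = 0.0938, adjusted p = 0.504) and a Spearman rho of -0.81 (exact permutation p = 0.0218, adjusted p = 0.293). These p-values are two-sided and adjusted over the 21 pairs among the 7 genes tested, and neither passed the correction. The pairs with ADA were counted in this adjustment, though no p-value is given for them. Without the 2 foxes farthest from the median of NT5E, 97 and 757, r was -0.82. The second NT5E probe set, which correlated with the brightest at an r of 0.717, was not paired with ENTPD1. Fox 86, highest in ENTPD1, was low on the brightest NT5E probe set (317) but above every affected fox on the second (36.9). Fox 757, next in ENTPD1, was low on both (293 and 23.8). The opposite pattern is thus given for the brightest NT5E probe set alone.

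Of the receptors, ADORA2B was measured and ADORA2A was hardly above background. ADORA2B read 51.4, 62.6, 85.7, 70.1 and 63.5 in affected foxes 19, 55, 107, 381 and 757, against 66.1, 53.8 and 33.7 in unaffected foxes 86, 97 and 402. Only the lowest unaffected fox, 402, lay outside the affected range. Affected foxes averaged 66.7 ± 12.6 (SD, n = 5), against 51.2 ± 16.4 (SD, n = 3) for unaffected ones. The log2 difference was 0.32 ± 0.21 (SE; adjusted p = 0.99992 in limma). It was 0.11 without unaffected fox 402. ADORA2B was closest to ENTPD1 over the 8 foxes, at a Pearson r of 0.64 (exact permutation p = 0.0884, adjusted p = 0.504) and a Spearman rho of 0.79 (exact permutation p = 0.0279, adjusted p = 0.293). The ADORA2A probe set spanned 3.25 to 10.2 across affected foxes and 5.23 to 11.7 across unaffected ones, and was above background in 0 of 5 affected foxes and 1 of 3 unaffected foxes.

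**Figure D3:**
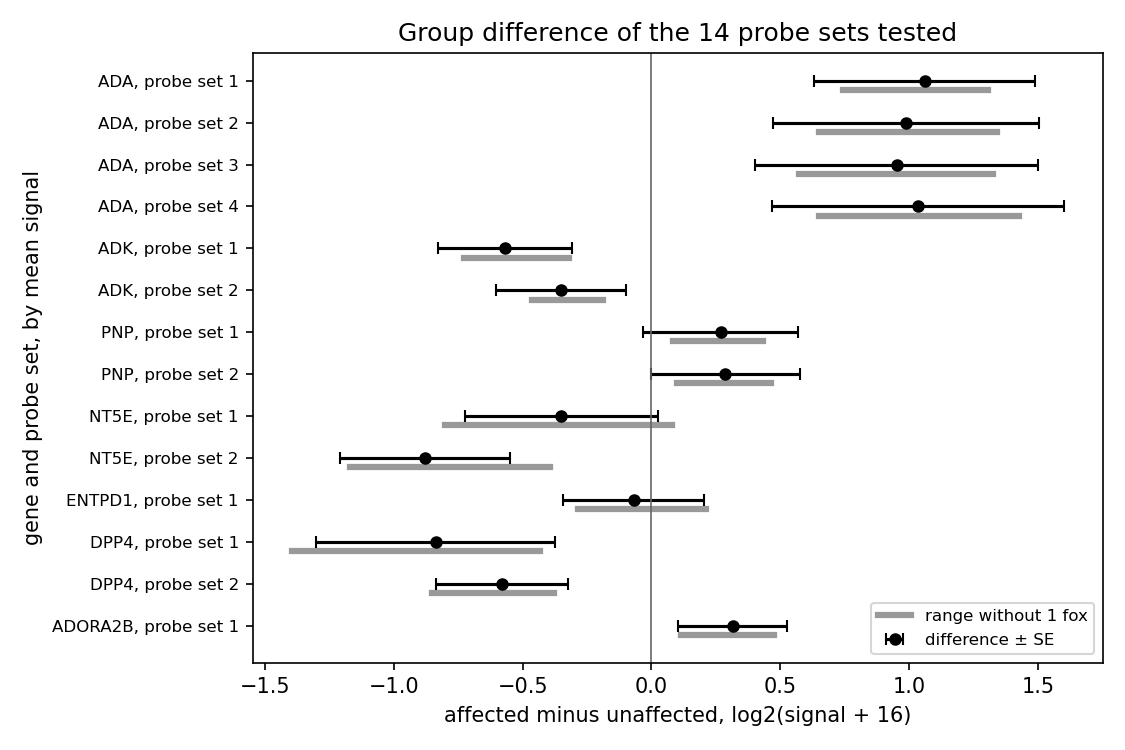
Difference between affected and unaffected foxes on the scale log2(signal + 16) for each probe set tested, ordered within a gene by mean signal, with points and whiskers for the difference ± SE and grey bars for the range when each fox is left out in turn. The ADA values are a description, since ADA was chosen with them known. The grey bar crosses 0 for the brightest NT5E probe set (-0.80 to 0.08) and for ENTPD1 (-0.28 to 0.21).

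Counted over the whole array, limma called 0 of 25754 probe sets at an adjusted p under 0.05 (0%), and 0 of the 10 member probe sets tested outside ADA. At an unadjusted p under 0.05 there were 2.69% of all probe sets and 2 of the 10, 1 each for NT5E and DPP4. A difference of at least 1 in size on the log2 scale with its offset was reached by 0.408% of all and by 0 of the 10. This count depends on the offset, which shrinks the differences of dim probe sets. The linear means were 27.4 in affected and 73.4 in unaffected foxes for the second NT5E probe set, and 55.5 and 119 for the brighter DPP4 one. With an offset of 1 these 2 differed by -1.16 and -1.01, and the rest of the 10 stayed under 1 in size. The groups did not overlap in 2.43% of all probe sets and in 1 of the 10, the second NT5E probe set. Of the 10, 3 had a higher mean in affected foxes (both of PNP and that of ADORA2B) and 7 a lower one, with a median difference of -0.35, beside 43.5% higher and a median of -0.04 over all probe sets tested.

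Sex was compared next, with a term for disease status, a contrast that played no part in choosing the genes. The brighter DPP4 probe set averaged 53.4 ± 42.5 in males (SD, n = 5) and 122 ± 63.6 in females (SD, n = 3), a log2 difference of -1.11 ± 0.32 (SE) that was not called in limma (adjusted p = 0.9999). The male range of 28.4 to 129 overlapped the female range of 63.3 to 189.7 through male fox 97 alone. The second DPP4 probe set differed by -0.34 ± 0.25 (SE). At an unadjusted p under 0.05, 1 of the 14 member probe sets was counted, this one of DPP4, beside 2.29% of all. At an adjusted p under 0.05 there were 0 of the 14, beside 0.00388% of all, which is 1 probe set. The brightest ADA probe set averaged 4236 ± 3787 in males and 3676 ± 815 in females (SD, n = 5 and 3), with the male range of 1491 to 10725 enclosing all 3 females. Its log2 difference with the disease term was -0.08 ± 0.46 (SE), the opposite sign to the difference of the linear means.

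Whether the disease difference itself varied with sex was tested as an interaction. It was called in limma for 0 of the 10 member probe sets outside ADA (0 of 25754 on the array, 0%), and at an unadjusted p under 0.05 it counted 0 of the 10, beside 2.47% of all. The largest estimates among the 10 were those of ENTPD1, at -0.95 ± 0.55 (SE), and of the brightest NT5E probe set, at 0.74 ± 0.79 (SE). ENTPD1 differed between affected and unaffected foxes by -0.41 in males, and by 0.54 in females with their single unaffected fox.

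Genes whose pattern over the 8 foxes was most like that of ADA were listed next among 10518 genes, by Pearson's r with the brightest ADA probe set on the log2 scale, as a description of 8 points on shared arrays. The 8 with the highest r were FAM107B, VDAC1, IL23A, TLE6, RASA1, ICAM1, TMPRSS2 and NANS, in falling order. Their r ran from 0.935 to 0.98, and their Spearman rho ran from 0.881 to 0.976. All 8 were highest in fox 55, which is largely fixed by choosing them on r with ADA, itself far highest there. Of the 10518 genes, 36 had an r of at least 0.9 and 32 an r of at most -0.9. IL23A, a cytokine subunit, read 95.6, 538, 138, 131 and 182 in affected foxes 19, 55, 107, 381 and 757, against 86.0, 54.2 and 134 in unaffected foxes 86, 97 and 402. ICAM1, an adhesion molecule for leukocytes, read 358, 3079.9, 911, 1023 and 1352 in the affected foxes in that order, against 717, 431 and 693 in the unaffected foxes. TMPRSS2, an epithelial surface protease, read 88.1, 714, 215, 216 and 463, against 141, 82.4 and 191. VDAC1, a channel of the outer mitochondrial membrane, followed ADA within a narrow range of 4939 to 6320.

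Without foxes 55 and 97 the r of these 8 genes was between 0.758 and 0.926, and 0 of them were among the 8 highest. The 4 genes most opposite to ADA were ZBTB1 (-0.951), CEP120 (-0.951), DSEL (-0.949) and TAOK1 (-0.943). Each was lowest in fox 55, again largely fixed by the choice on r. Of the other members, PNP ranked 114th from the top of the 10518 genes, while ADK ranked 9278th.

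The wider purine pathway was read from a list of 70 genes set out by role. The annotation named 62 of them, and 46 passed the filter and were tested with 1 probe set per gene. In affected foxes 17 had a higher and 29 a lower mean, with a median log2 difference of -0.12, beside 45.3% higher and a median of -0.03 over all 10848 genes tested. None of the 46 passed in limma in either direction (adjusted p = 0.99992 at the lowest), and 2 had an unadjusted p under 0.05, BST1 and PRPS2, beside 2.55% of all genes tested.

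Among the 10 tested genes that release ATP or act on nucleotides outside the cell, 7 had higher means in affected foxes (median 0.19). BST1, a surface enzyme that uses NAD, read 210.2, 210.0, 182, 177 and 248 in affected foxes 19, 55, 107, 381 and 757, against 135, 155 and 155 in unaffected foxes 86, 97 and 402. Every affected fox lay above every unaffected one, and the log2 difference was 0.42 ± 0.17 (SE), with 0.34 on its second probe set. BST1 was the 1 gene of the 46 whose groups did not overlap, a share near the 2.44% of all genes tested. ENTPD3, a relative of ENTPD1, differed by 0.60 ± 0.36 (SE), with 1.10 when unaffected fox 86 was left out and 0.29 when unaffected fox 97 was. PANX1, a channel that releases ATP, and ENTPD6 differed by -0.31 ± 0.21 and -0.27 ± 0.21 (SE), and the second ENTPD6 probe set by -0.34.

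All 4 nucleoside transporters tested had lower means in affected foxes (median -0.24), led by SLC28A3, a concentrative carrier, at -0.72 ± 0.43 (SE). Its probe set was at background in 2 affected foxes, and its other probe set differed by 0.24. SLC29A1, the equilibrative carrier that takes up adenosine, differed by -0.34 ± 0.26 (SE) and by -0.03 on its second probe set. The other adenosine receptor tested, ADORA3, differed by 0.02 ± 0.30 (SE).

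In breakdown and salvage 5 of 14 genes had higher means (median -0.10). AHCY, which frees adenosine from S-adenosylhomocysteine, differed by 0.40 ± 0.26 (SE), with 0.18 on its second probe set. NT5C2, a cytosolic nucleotidase, differed by 0.36 ± 0.20 (SE), with 0.26 and 0.10 on its others. ADAL, a relative of ADA, differed by -0.26 ± 0.23 (SE), and its other probe sets by 0.04 and -0.17. GDA, guanine deaminase, differed by -0.43 ± 0.37 (SE), with -0.20 on its second probe set. ADA2, the secreted deaminase, was among the other genes of this role, whose differences lay between -0.77 and 0.20.

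Purine synthesis had 2 of 11 genes with higher means (median -0.17). PRPS2, which makes the activated sugar that starts the pathway, read 50.3, 19.4, 9.998, 15.7 and 47.8 in affected foxes 19, 55, 107, 381 and 757, against 92.4, 35.4 and 68.0 in unaffected foxes 86, 97 and 402. The groups overlapped through unaffected fox 97, and affected fox 107 was at background. Its log2 difference was -0.90 ± 0.36 (SE), with -0.72 and -0.74 on its other probe sets. PAICS differed by -0.24 ± 0.16 (SE), with -0.39 on its second probe set, and ATIC and ADSS2 by 0.07 and 0.04, with 0.07 on the second ADSS2 probe set. Of the 6 nucleotide receptors tested, 2 had higher means (median -0.13). P2RY1, a receptor for ADP, differed by -0.55 ± 0.30 (SE), with -0.06 on its second probe set, P2RY6 by -0.16 ± 0.15 (SE), and P2RX4 and P2RY10 by 0.02 each, with 0.20 on the second P2RX4 probe set.

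**Figure D4:**
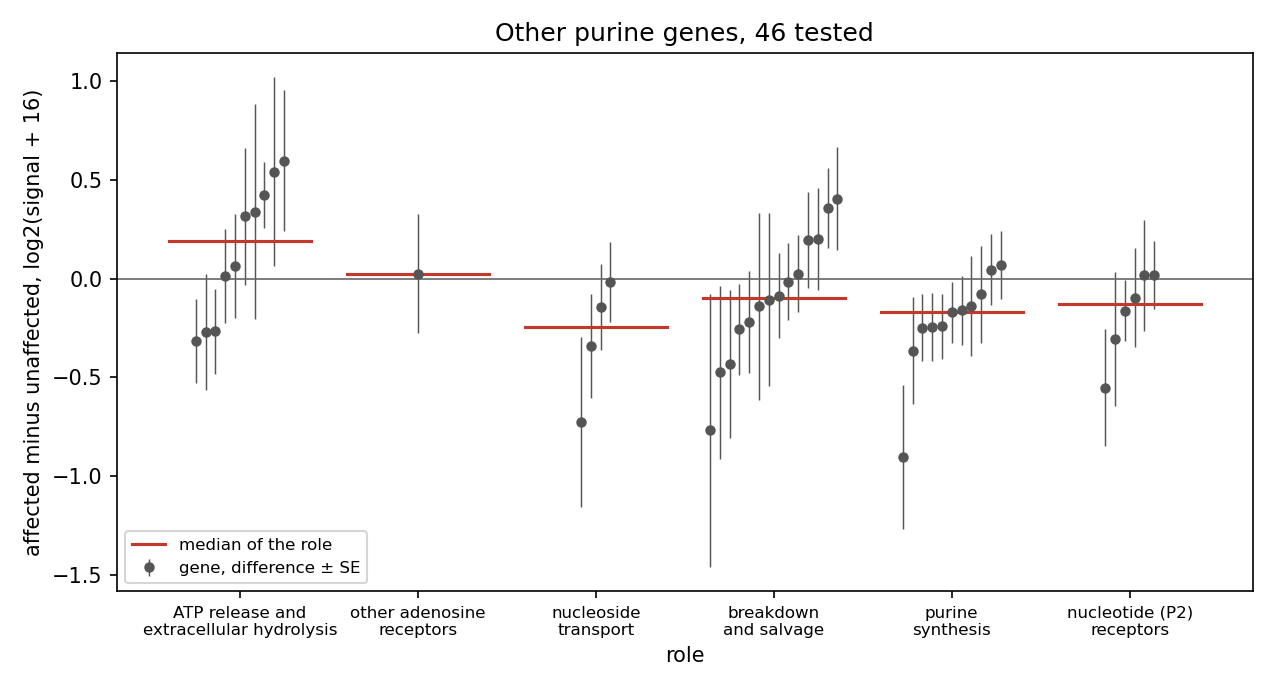
Difference between affected and unaffected foxes on the scale log2(signal + 16) for the 46 other purine genes tested, with 1 point per gene, whiskers for the SE and a red line at the median of each role. The medians are 0.19 for ATP release and extracellular hydrolysis, -0.24 for nucleoside transport and -0.17 for purine synthesis, and no gene passed the threshold.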

How the data were processed

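Gingival RNA of 8 foxes was read on 1 array each. The authors deposited linear intensity values, the MAS5 signal per the submitters' processing notes. Its version and settings are not stated in the labels. After trimming 2% from both ends, each array's mean came to 150.0. Depth does not apply to arrays, and the number of foxes limits the precision: the median SE of a group difference was 0.23 on the log2 scale.

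Genes were named from the platform annotation where a probe set had 1 symbol (29254 probe sets, with 439 of several symbols and 13231 unnamed). The scale was log2(signal + 16), without renormalizing, so folds of dim probe sets are understated. Leaving out 111 controls and the dimmest 40% by mean left 25754 probe sets. Groups, sex and their interaction were fitted over all of these with limma 3.58.1 in R 4.3.3 (lmFit, eBayes, Benjamini-Hochberg). For 1 value per gene, the probe set of highest mean was used. The fit was run on simulated independent normal values with planted changes. The check covered the mean estimate alone, and the power with these foxes is not given.

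The genes, lists and comparisons were chosen with earlier results of these data known. Named genes were all member probe sets, per role and direction the 2 other purine genes with the smallest p, and the 8 genes most like and 4 most opposite to ADA, leaving out LOC and ENSCAFG symbols and receptor segments. Whether foxes shared litters is not given, so p-values measure the spread between these animals only. Correlations between genes used exact permutation tests over all orders of the foxes. Affected and unaffected foxes were permuted together, so these p-values do not separate a group difference from variation between foxes within a group. Alternatives covered the offset, scaling, filter, sex, the 5' actin set, array weights, prior variance and each fox left out.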

Additional observations from a re-analysis of the deposited data

How the results depend on the processing

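Under the 22 alternative fits of affected against unaffected foxes, including each fox left out in turn, 0 member probe sets were called in limma, as with all foxes, and the same held for the other purine genes, for sex and for the interaction under the alternatives run on them. The ADA, ADK, PNP, DPP4 and ADORA2B differences and that of the second NT5E probe set kept their sign in all 22. With quantile normalization the median of all probe sets was -0.01 in place of -0.04, and 48.4% had a higher mean in place of 43.5%.

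ENTPD1 changed sign with a 5' actin term (0.078), in females (0.54), within high (0.016) and low (0.16) 5' actin and with array weights (0.12), and ADSS2 with quantile normalization (-0.0018). With 1 fox left out at a time, the range was -0.28 to 0.21 for ENTPD1, -0.80 to 0.080 for the brightest NT5E probe set, -0.13 to 0.27 for ADORA3, -0.18 to 0.33 for P2RY10, -0.067 to 0.12 for P2RX4, -0.043 to 0.20 for ADSS2 and -0.0047 to 0.13 for ATIC. The cause of these changes was not tested. Of the 8 genes most like ADA, 3 were among the 8 highest with values centred within group and 0 without foxes 55 and 97. No paired analysis was possible because the groups share no fox numbers. Differences within females and within low 5' actin rest on 1 unaffected fox each.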
